A study of Rattus norvegicus with 6 samples.

Results

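The genes described here act in late G2 and in mitosis, from the kinases that start division to the proteins that separate the daughter cells. They were a list of 40 genes, given by name with no rule on their values, and the list was made with earlier results of these data known. Of these, 35 had a probe set assigned to them alone and were measured, among 14217 genes represented in that way. Hmgb2 and Anln were represented only by probe sets that name several genes, and Tpx2, Ndc80 and Kif4a were not analysed here. The 35 genes fall into 5 steps, with 12 in the entry into mitosis, 5 in the spindle, 8 at the kinetochore and in the chromosomal passenger complex, 5 in the spindle checkpoint and 5 in cytokinesis.

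The tissue was the Achilles tendon of rats on post-natal day 1 and post-natal day 7, measured on an Affymetrix oligonucleotide array with 3 arrays at each age. Each array carried RNA of 2 or more animals pooled, and the p-values therefore speak of differences among pools. Neither age was treated, and the labels give no strain, sex or genotype. All values are deposited intensities on a linear scale, given in the order of replicates 1, 2 and 3, and a log2 change is the day 7 level less the day 1 level on the log2(intensity + 1) scale.

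A cell enters mitosis when cyclin B activates the kinase Cdk1. The chromosomes then condense, attach to the spindle through their kinetochores, are held by the checkpoint until every chromosome is attached, and are shared between daughter cells that part at cytokinesis. Most of the transcripts involved peak in G2 and mitosis, so in a tissue they are used as markers of dividing cells. Tendons grow in the first weeks after birth, when their cells still divide, and division becomes rare in the adult tendon. In whole tissue, a smaller number of dividing cells and less of each transcript per dividing cell cannot be told apart.

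The labelled tissue was checked against marker genes. The tendon markers Scx, Tnmd, Fmod, Thbs4, Comp, Col1a1, Col1a2 and Dcn were all well above the negative control probe sets, which read between 3.74 and 4.76. Scx read 747, 897 and 603 on day 1 and 797, 803 and 835 on day 7. Of these 8 tendon markers, Comp and Dcn rose and none fell. Muscle fibre transcripts were abundant as well. The 9 muscle fibre markers summed to 54203.5, 46818.5 and 57945.7 on day 1 and to 33120, 42540.3 and 27750.9 on day 7. The 8 tendon markers summed to 36962.4, 44238.7 and 26219.6 on day 1 and to 62215.9, 52321.4 and 47723.4 on day 7. The arrays thus held muscle transcripts with those of tendon, and both sums kept the ages apart. Such sums do not measure amounts of tissue, and whether these differed with age was not tested. The array of day 1 replicate 1 stood apart in skin markers. The keratins Krt5, Krt14, Krt1 and Krt10 summed to 4858 there, against 93.4 and 100.5 on the other day 1 arrays and 200.8, 108 and 93.0 on day 7. The counts of calls in the mitosis, replication, regulator and marker lists are therefore also given without that array.

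Of the 35 genes, 23 fell between day 1 and day 7, none rose and 12 did not pass (limma, Benjamini-Hochberg adjusted p under 0.05). Over all represented genes, 3.15% fell and 1.93% rose by the same rule. The median log2 change of the 35 genes was -0.88, from -1.30 for the kinetochore motor Cenpe to -0.30 for the centromeric histone Cenpa, while the median over all genes was -0.01. Many of all genes were dim. With brighter probe sets only, the medians were -0.88 for the 34 members kept and -0.10 for all genes kept. The changes had an SD of 0.22 among the 35 genes. The median standard error of a single gene was 0.17. It holds differences between arrays that the genes shared, so it does not give the spread to expect among genes. All 35 had a change below 0, as did 52% of all genes. At an unadjusted p under 0.05, 34 of the 35 were lower, all but Cenpa, against 17% of all genes. In 33 genes all 3 day 7 arrays lay below all 3 day 1 arrays, and in the other 2, Plk1 and Cenpa, the ages overlapped. That order was seen in 19.1% of all genes, and the opposite order in 14% of all genes and in none of the 35. A fall of at least 2-fold was fitted for 11 of the 35 and for 1.74% of all genes.

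The number of calls depended on single arrays, while the direction did not. Without day 1 replicate 1 the kinesin Kif2c alone still passed (adjusted p = 0.047), with 0.26% of all genes called lower. The median was then -0.74, all 35 changes were below 0, 33 genes kept the ages apart, and 32 were lower at an unadjusted p under 0.05, against 13.1% of all genes. Without day 7 replicate 1 none of the 35 passed limma (lowest adjusted p = 0.068), and the share of all genes called lower was 0%. At an unadjusted p under 0.05, 32 of the 35 were lower in that fit too, against 13.1% of all genes, and the median was -0.83. The calls numbered 14 without day 1 replicate 2 (2.69% of all genes), 14 without day 1 replicate 3 (0.753%), 13 without day 7 replicate 2 (2.65%) and 7 without day 7 replicate 3 (0.556%). In each of the 6 fits all 35 changes were below 0 and at least 33 genes kept the ages apart. Quantile normalization ended the calls of Ccna2, Kif11, Cenpf, Nuf2, Cdca8, Ube2c, Kif23 and Prc1, with adjusted p from 0.0539 to 0.0774, and left 15.

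**Figure D1:**
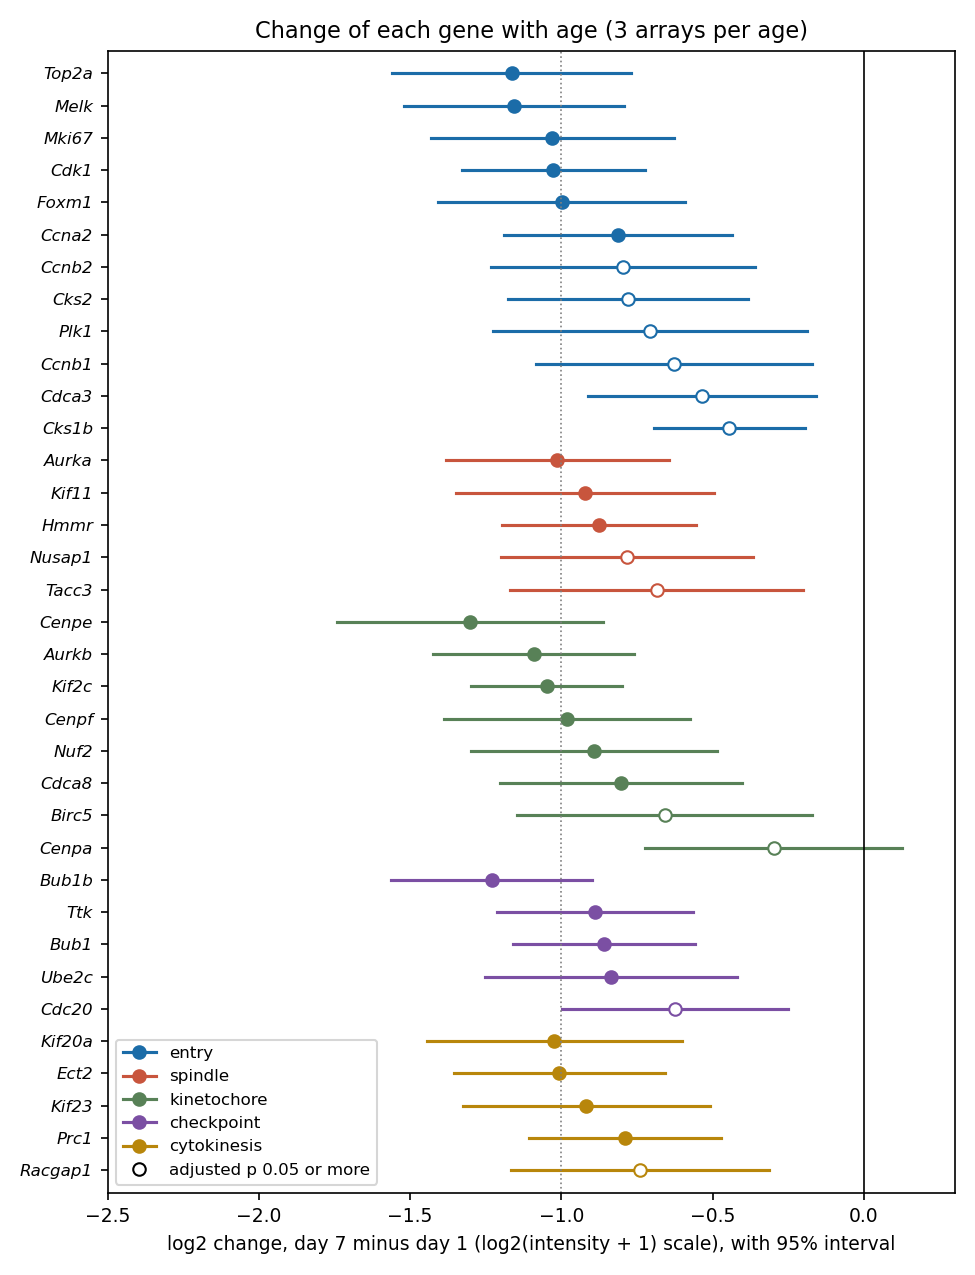
Log2 change from day 1 to day 7 for each of the 35 genes (horizontal axis, with 95% confidence interval), grouped by step; filled circles have an adjusted p under 0.05 and the dotted line marks a log2 change of -1, a 2-fold fall. The points run from -1.30 for Cenpe to -0.30 for Cenpa, and the interval of Cenpa alone reaches 0.

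The members were also compared in their promoters. RefSeq promoter windows of the rat assembly GRCr8 were found for 30 of the 35 genes, with none for Ccna2, Foxm1, Aurkb, Ube2c and Racgap1. The windows were searched, on both strands, for the letters TTTGAA, known as the cell cycle genes homology region or CHR, which binds the DREAM and MuvB complexes. They were searched likewise for CCAAT, the box bound by the factor NF-Y. The CHR is named for cell cycle genes, so a high share of it among the members is not independent support. The stretches printed are the 120 bases before the start, 5′ to 3′ on the gene's strand, of the 7 genes that fell and held both motifs there, since these show how closely the motifs lie to each other. Capitals mark the motifs, which read TTCAAA and ATTGG where they lie on the opposite strand.
Cdk1 (chr20:19265173-19265292, plus strand): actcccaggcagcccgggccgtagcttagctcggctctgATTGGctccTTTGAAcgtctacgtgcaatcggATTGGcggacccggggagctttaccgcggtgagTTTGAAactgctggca
Mki67 (chr1:199952594-199952713, minus strand): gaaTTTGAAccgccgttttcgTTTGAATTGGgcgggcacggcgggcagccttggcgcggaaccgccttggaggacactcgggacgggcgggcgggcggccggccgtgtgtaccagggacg
Top2a (chr10:84473094-84473213, minus strand): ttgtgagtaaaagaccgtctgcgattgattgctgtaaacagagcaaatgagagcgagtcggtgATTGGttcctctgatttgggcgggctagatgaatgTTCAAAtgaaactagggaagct
Hmmr (chr10:25665216-25665335, minus strand): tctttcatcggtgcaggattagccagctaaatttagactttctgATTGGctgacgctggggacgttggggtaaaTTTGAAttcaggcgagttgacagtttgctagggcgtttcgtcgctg
Cdca8 (chr5:142483200-142483319, minus strand): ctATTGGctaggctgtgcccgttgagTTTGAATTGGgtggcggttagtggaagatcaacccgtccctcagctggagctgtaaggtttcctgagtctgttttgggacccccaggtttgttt
Kif23 (chr8:71320585-71320704, minus strand): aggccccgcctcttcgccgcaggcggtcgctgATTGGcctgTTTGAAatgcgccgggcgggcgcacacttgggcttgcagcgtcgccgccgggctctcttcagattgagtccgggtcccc
Prc1 (chr1:143659361-143659480, plus strand): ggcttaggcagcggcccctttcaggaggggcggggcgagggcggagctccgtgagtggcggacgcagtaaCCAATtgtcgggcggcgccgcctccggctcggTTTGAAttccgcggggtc
In Cdk1 each motif occurs in 2 copies within these 120 bases. In Mki67 and Cdca8 a CHR and an inverted CCAAT box share a base. Within the printed bases, Prc1 alone of the 7 has its CCAAT box on the gene's own strand.

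In the 250 bases before the start, 15 of 30 members held a CHR (50%), against 10.9% of 11701 represented genes with a window and 16% of all 27457 genes with one. A CCAAT box was found in 24 of the 30 (80.0%, against 35.1% and 34.3%), and 2 or more in 19 of them (63.3%, against 11.5% of the represented genes). All 15 members with a CHR also had a CCAAT box, which was the case for 4.04% of the represented genes. With the 50 bases after the start included, a search added after seeing the data, 21 of the 30 held a CHR (70.0%), against 12.3%. The mean GC content of the windows was 57.6% in the members and 59.1% in the represented genes. Both motifs were less frequent in the members that fell than in those that did not pass, whose changes were also below 0. This difference was not tested. A CHR was found in 8 of 19 that fell (42.1%) and 7 of 11 that did not pass (63.6%), and a CCAAT box in 68.4% and 100% of them. These matches describe letters in the windows and show no binding.

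**Figure D2:**
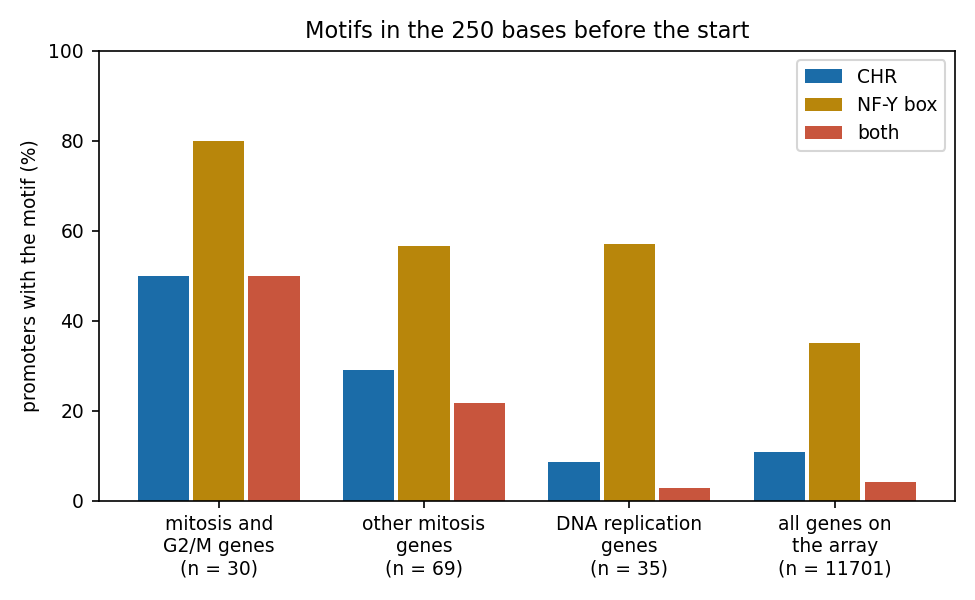
Share of promoters (%) with a CHR, with a CCAAT box (labelled NF-Y box) and with both in the 250 bases before the start, for the members (30 windows), other mitosis genes (69), DNA replication genes (35) and all represented genes with a window (11701). The CHR bar stands at 50% in the members and 8.57% in the replication genes, while the CCAAT bars stand at 80.0% and 57.1%.

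Of the 12 measured genes of the entry into mitosis, 6 fell and 6 did not pass, with a median log2 change of -0.80. The genes that fell were Cdk1, Melk, Top2a, Mki67, Foxm1 and Ccna2. Cdk1, the kinase that drives the entry into mitosis, read 600.4, 489 and 473 on day 1 and 232, 259 and 272 on day 7. The lowest day 1 array was well above the highest day 7 array, and the mean went from 521 ± 69.4 to 254 ± 20.3 (SD, n = 3), a 2.04-fold fall (log2 change -1.03, SE 0.13; adjusted p = 0.0141). Melk, a kinase of dividing cells, read 154, 131 and 110.2 and then 49.8, 64.1 and 60.8 (2.23-fold lower; adjusted p = 0.0177). Top2a, the topoisomerase that untangles sister chromatids, read 479.7, 369 and 327 and then 174, 148 and 197 (2.24-fold lower; adjusted p = 0.0207). Its largest day 7 value was 197, so the ages were far apart. Mki67 encodes Ki-67, the coat protein of mitotic chromosomes that is widely stained to count cycling cells. It read 602, 503 and 427 and then 202, 261 and 285 (2.04-fold lower; adjusted p = 0.0282). In each of these 4 genes day 1 replicate 1 was the highest array and day 1 replicate 3 the lowest of its age. Foxm1, the transcription factor that activates many G2 genes, fell 2.00-fold, just short of the 2-fold count above (from 66.4 ± 16.1 to 32.2 ± 3.53; adjusted p = 0.0309). Ccna2, the S and G2 cyclin, fell 1.76-fold (from 142 ± 29.3 to 79.6 ± 6.81; adjusted p = 0.0415).

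The 6 entry genes that did not pass include the mitotic cyclins. Ccnb1, the main partner of Cdk1, read 157, 101 and 107 on day 1 and 74.1, 92.8 and 66.3 on day 7 (log2 change -0.63, 95% interval -1.08 to -0.17; adjusted p = 0.118). Ccnb2 read 443, 307 and 261 and then 189, 178 and 199 (-0.80; adjusted p = 0.0625). Both kept the ages apart, with a spread on day 1 that came mainly from the high replicate 1. Plk1, the polo-like kinase that triggers entry and spindle assembly, read 163, 124 and 104 and then 65.9, 68.7 and 105 (-0.71; adjusted p = 0.121). Its day 7 replicate 3 lay at the level of day 1 replicate 3, so the ages overlapped. The small Cdk-binding proteins Cks1b and Cks2 did not pass either. Cks2 read 652, 534 and 499.6 and then 266, 325 and 395 (-0.78; adjusted p = 0.0517), the nearest to the threshold of the 12 that did not pass. Cks1b read 365, 362 and 382 and then 279.6, 289 and 247 (-0.45; adjusted p = 0.0655), the smallest change of the step, and was the one gene of the 35 whose highest array was not day 1 replicate 1. Cdca3, a trigger of mitotic entry, read 366, 243 and 259 and then 191, 192 and 205 (-0.54; adjusted p = 0.11). All of these except Plk1 kept the ages apart.

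Of the 5 measured spindle genes, Aurka, Hmmr and Kif11 fell and 2 did not pass, and the median was -0.88. Aurka, the centrosomal aurora kinase, read 63.4, 47.7 and 48.5 on day 1 and 22.5, 30.4 and 24.6 on day 7 (2.02-fold lower; adjusted p = 0.0240). Hmmr, a microtubule-binding protein of the spindle pole, read 61.1, 45.6 and 48.6 and then 29.0, 28.9 and 25 (1.83-fold lower; adjusted p = 0.0243). Kif11, the kinesin that pushes the spindle poles apart, read 151, 115 and 93.0 and then 54.7, 61.1 and 69.6 (1.89-fold lower; adjusted p = 0.0416). Day 1 replicate 1 was again the highest array in each, and no day 7 array reached the day 1 range. Nusap1, a protein that bundles spindle microtubules, read 369, 281 and 237 and then 149, 167 and 193 (log2 change -0.78; adjusted p = 0.0579). Tacc3, which stabilises kinetochore fibres, read 143, 99.6 and 87.0 and then 58.2, 61.4 and 82.3 (-0.68; adjusted p = 0.112). In Tacc3 the gap between the ages was small, from 82.3 to 87.0.

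Of the 8 measured genes of the kinetochore and the passenger complex, 6 fell and 2 did not pass, with a median of -0.94. Kif2c, a kinesin that removes faulty microtubule attachments, had the smallest adjusted p of all 35 genes. It read 96.4, 84.6 and 83.0 on day 1 and 43.2, 42.2 and 40.4 on day 7, from a mean of 88.0 ± 7.33 to 41.9 ± 1.44 (SD, n = 3; log2 change -1.05, SE 0.11; 2.07-fold lower; adjusted p = 0.0114). Its call was kept in 5 of the 6 fits without 1 array, and no other member's in more than 4. A further probe set of Kif2c, with no array above 10.9, did not pass limma (log2 change -0.10, adjusted p = 0.684). Aurkb, the kinase of the passenger complex that corrects attachments, read 134, 98.3 and 104 and then 55.9, 51.6 and 47.8 (2.13-fold lower; adjusted p = 0.0153). Cenpe, the kinesin that carries chromosomes to the spindle equator, read 69.0, 52.7 and 43.3 and then 19.9, 19.0 and 25.7 (2.46-fold lower; adjusted p = 0.0205). This was the largest fall of the 35 genes in log2 change (-1.30, SE 0.19). Cenpf, a large protein of the outer kinetochore, read 207, 205 and 147 and then 93.1, 78.7 and 109 (1.98-fold lower; adjusted p = 0.0314). Day 1 replicate 3 was lowest of its age for Cenpf, and the ages did not overlap. Nuf2, a subunit of the Ndc80 complex that grips microtubules, fell 1.85-fold (from 183 ± 44.2 to 96.6 ± 6.80; adjusted p = 0.0395). Cdca8, the passenger subunit borealin, was just inside the threshold (1.74-fold lower; adjusted p = 0.0492). Cdca8 did not pass whenever any array was left out, and the same held for Ube2c, Kif23 and Prc1 among the members that fell.

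A further passenger subunit, Birc5 or survivin, read 53.7, 39.8 and 35.9 on day 1 and 22.8, 35.5 and 23.1 on day 7 (-0.66; adjusted p = 0.124). Its day 7 replicate 2, at 35.5, came within the reach of the lowest day 1 array, at 35.9. Cenpa, the histone H3 variant that marks centromeres, read 13.1, 9.81 and 9.37 and then 6.94, 10.9 and 7.97 (-0.30, 95% interval -0.72 to 0.12; adjusted p = 0.382). It was the dimmest of the 35 probe sets, the only one with a mean not over 20, and its lowest value of 6.94 lay near the negative controls. Near that level the log2(intensity + 1) scale understates a change.

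**Figure D3:**
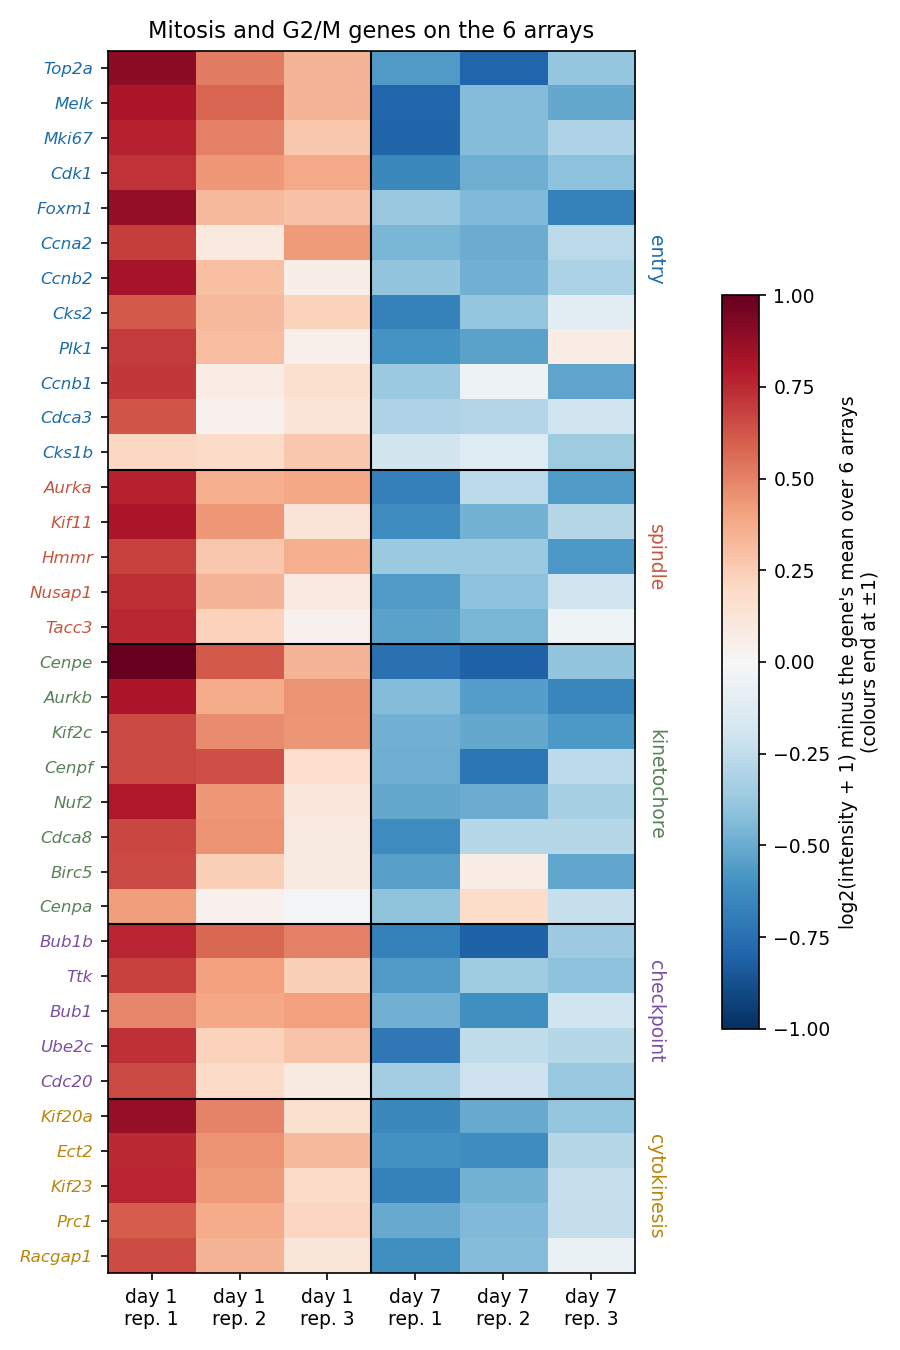
Colour map of the 35 genes (rows, by step) on the 6 arrays (columns), each value a log2(intensity + 1) minus the gene's mean over the arrays. Day 1 columns are red and day 7 columns blue in nearly every row, and day 1 replicate 1 is the highest array in 34 of 35 genes.

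Of the 5 measured genes of the spindle checkpoint and anaphase, 4 fell, and the median change was -0.86. Bub1b encodes BubR1, the checkpoint protein that inhibits the anaphase-promoting complex. It read 85.7, 75.1 and 71.3 on day 1 and 31.0, 28.1 and 38.6 on day 7 (2.35-fold lower; log2 change -1.23, SE 0.14; adjusted p = 0.0141). The checkpoint kinase Bub1 read 131, 122 and 125 and then 66.5, 60.7 and 81.3 (1.81-fold lower; adjusted p = 0.0217). Ttk, or Mps1, the kinase at the head of the checkpoint, read 114, 93.9 and 83.0 and then 47.2, 54.7 and 52.6 (1.85-fold lower; adjusted p = 0.0240). The day 1 arrays of Bub1 lay close together, with an SD of 4.74. Ube2c, the ubiquitin-conjugating enzyme of the anaphase-promoting complex, read 493, 348 and 362 and then 180.4, 248 and 243 (1.79-fold lower). It passed by the smallest margin of the 23 (adjusted p = 0.0499). Cdc20, the coactivator that the checkpoint holds back, read 180.1, 129.7 and 121 and then 88.9, 98.1 and 87.2 (-0.63; adjusted p = 0.0753), with the ages apart.

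Of the 5 measured cytokinesis genes, 4 fell, and the median change was -0.92. Ect2, the exchange factor that switches on RhoA at the cleavage furrow, read 216, 175 and 161 on day 1 and 84.2, 83.3 and 105 on day 7 (2.01-fold lower; adjusted p = 0.0209). Prc1, which bundles the microtubules of the central spindle, read 489.9, 416 and 373 and then 226, 237 and 273 (1.73-fold lower; adjusted p = 0.0299). Kif20a, a kinesin of the central spindle, read 202, 155 and 123 and then 69.6, 76.8 and 83.7 (2.03-fold lower; adjusted p = 0.0313). In all 5 genes of this step day 7 replicate 3 was the highest of its age and day 1 replicate 3 the lowest of its age. Kif23, the motor subunit of centralspindlin, read 395, 313 and 266 and then 145, 168 and 198 (1.89-fold lower; adjusted p = 0.0376). Racgap1, its partner in centralspindlin, read 295, 237 and 204 and then 122, 138 and 179 (-0.74; adjusted p = 0.0701). A further probe set of Racgap1 did pass (adjusted p = 0.0259).

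The steps were alike in size, with medians between -0.94 at the kinetochore and -0.80 at entry, and no test of a difference between steps was made. Among the 13 members with several probe sets, 14 of 16 further probe sets had a change below 0, and those of Top2a, Kif11 and Racgap1 passed. The remaining ones, of Tacc3 and Cdc20, had changes of 0.08 and 0.14. Further probe sets of Kif2c, Hmmr, Ttk, Kif23 and Foxm1, genes that fell by the probe set used, did not pass. That of Hmmr overlapped between the ages (limma log2 change -0.31, adjusted p = 0.521).

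The members moved together from array to array, also within an age. The median deviation from each gene's mean was 0.73, 0.37 and 0.23 on the day 1 arrays and -0.57, -0.44 and -0.32 on the day 7 arrays, in log2 units. Within day 1, replicate 3 was lowest for 26 genes and replicate 2 for 9. Within day 7, replicate 3 was highest for 21 genes, replicate 2 for 10 and replicate 1 for 4. The ages were thus nearest to each other in their replicates numbered 3, and day 1 replicate 1 lay farthest out. The same array held the keratin transcripts, with Krt5 at 756 against 11.4 to 68.1 on the other 5 arrays and Krt10 at 2575 against 50.4 to 95.5. None of the 4 keratins passed (lowest adjusted p = 0.432). Their part in the high values of that array was not tested, and the median without the array is the -0.74 given above.

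Muscle precursor markers also moved with age. Myod1, Myog and Mymk, the transcription factors of myogenic cells and the fusion protein of myoblasts, all fell, with a median log2 change of -1.95. They summed to 1494, 1491 and 2503 on day 1 and to 460, 752 and 362 on day 7. Their order within each age was not that of the mitosis genes, which summed to 8537, 6747 and 6183 on day 1 and to 3587, 3912 and 4296 on day 7. The myogenic sum was highest on day 1 replicate 3, where the mitosis sum was lowest of its age, and lowest on day 7 replicate 3, where the mitosis sum was highest of its age. Of 9 markers of muscle fibres, Myh3 and Myh8 fell, with a list median of -0.81. Of 4 red cell markers 0 passed limma (lowest adjusted p = 0.642; 0 lower at an unadjusted p under 0.05), with sums from 6975 to 14812 that overlapped between the ages. Of 6 macrophage markers Adgre1 alone rose and none fell, but 4 had a change below 0 and the list median was -0.25. The largest of these was -1.01 for Cd163 (limma adjusted p = 0.0988), with all day 7 arrays below all day 1 arrays. Of 5 endothelial markers Egfl7 alone rose. Of 6 fat cell markers 5 rose, of 6 cartilage markers Col9a2 alone rose, and of 3 Schwann cell markers S100b alone rose. Without day 1 replicate 1, limma called Mymk and Cd163 lower and Adipoq and Plin1 higher among all these markers, and 0 of the 8 tendon, 9 muscle fibre, 6 cartilage, 5 endothelial, 4 red cell, 4 keratin and 3 Schwann cell markers passed. At an unadjusted p under 0.05, 6 tendon, 5 fat cell, 4 cartilage, 2 endothelial and 2 Schwann cell markers were then higher, and 7 muscle fibre markers were lower. Of the macrophage markers 3 were lower and 1 higher, and 0 red cell or keratin markers were either. All 3 myogenic markers were lower by that rule, with a median of -1.98. How far a change in the mix of cells contributes to the fall of the mitosis genes was not tested.

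**Figure D4:**
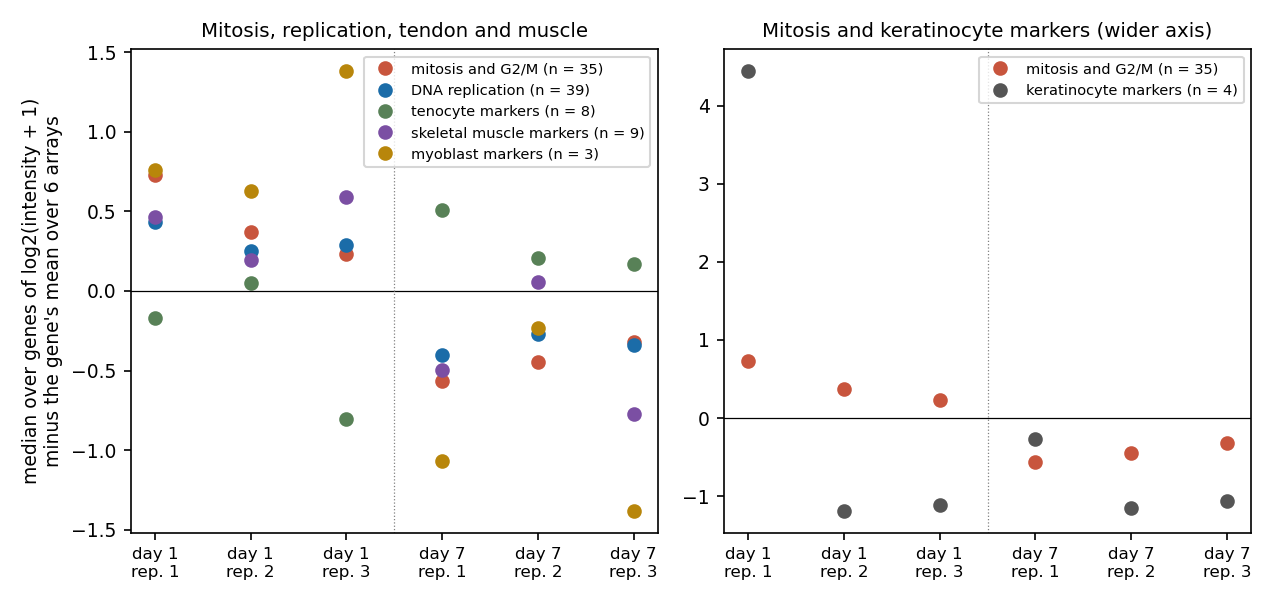
Median deviation of gene lists from each gene's mean over the 6 arrays (vertical axis, log2 units) on each array, with the keratinocyte markers in a second panel on a wider axis. The mitosis genes stand at 0.73, 0.37 and 0.23 on day 1 and -0.57, -0.44 and -0.32 on day 7, the myoblast markers are highest on day 1 replicate 3, and the keratins are high on day 1 replicate 1 alone.

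A wider list of 96 other mitosis genes, of which 83 were measured, held 37 that fell and no gene that rose, and its median was -0.67. In 65 of the 83 all day 7 arrays lay below all day 1 arrays. Without day 1 replicate 1 the calls numbered 3, with 54 lower at an unadjusted p under 0.05, and without day 7 replicate 1 there were 0 calls in limma and 57 lower by that looser rule. These genes were not uniform. The other spindle genes had 10 of 14 lower (median -0.84), among them the kinesin Kif15 (2.14-fold lower; adjusted p = 0.0141), the centriole kinase Plk4 (1.95-fold; 0.0141) and the spindle pole protein Aspm (2.09-fold; 0.0196). The other kinetochore genes had 12 of 18 lower (median -0.78). Mis18a, which readies centromeres for new Cenpa, was 2.15-fold lower (adjusted p = 0.0111), and Zwint, a scaffold of the outer kinetochore, 2.66-fold (0.0141). Zwint read 758, 949 and 1109.7 on day 1 and 309, 376 and 365 on day 7. It was highest on day 1 replicate 3, as Cks1b alone was among the 35 members. The other cytokinesis genes had 4 of 10 lower (median -0.78), Shcbp1, Depdc1, Iqgap3 and Kif20b. RhoA itself, the furrow GTPase that most cells express, was not called (log2 change 0.12; adjusted p = 0.595).

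Of 18 genes of chromosome condensation and cohesion, 7 fell (median -0.54). When these were divided into complexes after their values had been seen, 4 of 7 condensin subunits fell (median -0.76), led by Ncapd2 (2.34-fold lower; adjusted p = 0.0114), and 0 of 5 cohesin ring subunits passed limma (median -0.31; 4 lower at an unadjusted p under 0.05). Cohesin, which also organises chromosomes outside mitosis, included Rad21, with 930.5, 884 and 885 on day 1 and 777, 666 and 731 on day 7 (adjusted p = 0.139). Of the 15 other genes of the checkpoint and the anaphase-promoting complex, Trip13 and Mad2l1 fell (median -0.29). The 9 subunits of the complex itself, grouped after their values had been seen, had 0 calls in limma, 3 at an unadjusted p under 0.05, and a median of -0.09, with changes from -0.47 to 0.11. The change of -0.47 was that of Cdc27, which read no more than 10.9 on any array, so its fold change is not reliable. Anapc5 read 1445, 1206 and 1113 on day 1 and 1261, 1277 and 1239 on day 7 (log2 change 0.01). Of the 8 other entry genes, Lmnb1 (1.89-fold lower; 0.0141), which encodes a nuclear lamin, and the phosphatase Cdc25a (1.65-fold; 0.0319) fell. Its relative Cdc25b ranged from 105 to 332 on the day 7 arrays alone and had a change of 0.04 (adjusted p = 0.969).

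Genes of DNA replication, the step before mitosis, were lower too. Of 43 listed, 39 were measured and 23 fell, with no rise, all 39 changes were below 0, and the median was -0.69. The cyclin Ccne1, which starts S phase, was 3.16-fold lower (172, 138 and 214 on day 1, and 47.7, 67.4 and 48.3 on day 7; adjusted p = 0.0141). Lig1, the replicative ligase, and Mcm4, a helicase subunit, were 1.78-fold and 1.72-fold lower (adjusted p = 0.0142 and 0.0154). Day 1 replicate 1 was the highest array in 20 of the 39 replication genes, compared with 34 of the 35 mitosis genes. In limma 0 replication genes passed without day 1 replicate 1 or without day 7 replicate 1, with 31 and 34 lower at an unadjusted p under 0.05. In their promoters 3 of 35 windows held a CHR (8.57%) and 20 of 35 a CCAAT box (57.1%).

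**Figure D5:**
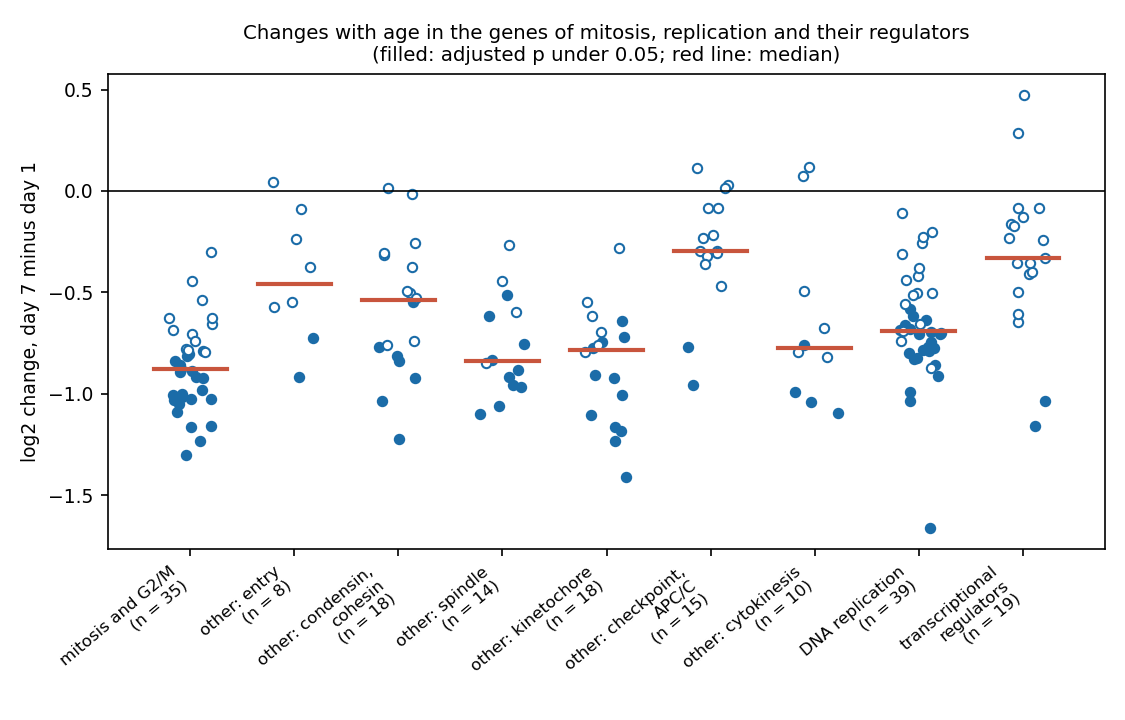
Log2 change from day 1 to day 7 (vertical axis) for every measured gene of the mitosis list, the other mitosis lists, DNA replication and their transcriptional regulators, with filled points for an adjusted p under 0.05 and a bar at each median. The medians run from -0.88 in the mitosis list to -0.29 in the checkpoint and anaphase-promoting complex genes.

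Of 20 listed transcriptional regulators of the cell cycle, 19 were measured and 2 fell, with no rise, and the median was -0.33. Without day 1 replicate 1, limma called 0 of the 19, with 8 lower and 1 higher at an unadjusted p under 0.05 and a median of -0.30. The atypical repressors E2f7 and E2f8, which are themselves made in S phase, fell 2.05-fold and 2.23-fold (adjusted p = 0.0141 and 0.0186). E2f7 read 66.1, 56.5 and 51.3 on day 1 and 26.4, 28.5 and 28.1 on day 7. Mybl2, which joins the MuvB complex at CHR promoters, had a change of -0.64 (adjusted p = 0.0669). The MuvB core subunits Lin9, Lin37, Lin52 and Lin54 had changes of -0.16, -0.09, 0.29 and -0.33, and none passed. Rbl2, or p130, the pocket protein of the DREAM complex that represses these genes in resting cells, read 73.6, 85.4 and 80.8 on day 1 and 130.1, 101 and 104 on day 7. Its day 7 arrays all lay above its day 1 arrays, but the change of 0.47 did not pass (adjusted p = 0.0909). The related Rbl1 had a change of -0.40 (adjusted p = 0.0831) and Rb1 one of -0.41 (0.174). E2f1, E2f2, E2f4 and E2f5 had changes of -0.17, -0.60, -0.24 and -0.23, and their partners Tfdp1 and Tfdp2 of -0.35 each. The NF-Y subunits Nfya, Nfyb and Nfyc, which bind the CCAAT box, had changes of -0.50, -0.08 and -0.13 (adjusted p = 0.0756, 0.669 and 0.612).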

How the data were processed

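Per the labels, Achilles tendons of post-natal day 1 and day 7 rats were dissected and RNA from at least 2 animals per sample was hybridised to 1 array, with 3 arrays per age. The deposited intensity values, linear and 1 for each probe set of an array, were used as they stand. The submitters' processing notes name MAS5 and RMA. How either was used, the background correction and the scaling were not given in the sources used here. Array medians ran from 20.5 to 21.1, but 75th percentiles ran from 94.3 to 95.9 (day 1) and from 84.1 to 91.8 (day 7), so scale differs with age.

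Values were transformed to log2(value + 1), and 31042 of 31099 probe sets (without 57 controls) were fitted with lmFit and eBayes (limma 3.58.1, R 4.3.3), day 7 against day 1, in a two-sided test adjusted by Benjamini-Hochberg over these probe sets, with a threshold of 0.05. A gene was read from its probe set of highest mean log2 value among those that name it alone. The fit was tested on simulated data. The members and lists were chosen with earlier results of these data known. Values on all arrays are given for up to 4 members of each step with the smallest adjusted p and for every member that did not pass. Of each other list, up to 4 genes with the smallest adjusted p, and all measured regulators, are named by their change, with values on all arrays for some. Further genes were named after their values were seen: Rhoa, Rad21, Anapc5, Cdc25b, Cd163, Cdc27, Sgo2, Cdca5 and Kif18a.

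The alternatives were quantile normalization, centring on medians, scaling to the 75th percentile, a pseudocount of 16, brighter probe sets only, a mean over the probe sets of a gene, robust variances with an intensity trend, weights for arrays, a block for the replicate number and each array left out (for marker and regulator lists, day 1 replicate 1 only, added after seeing the data). Promoter windows, 250 bases before to 50 after each start, came from RefSeq tables of GRCr8. With 3 arrays per age, the precision of all values is limited.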

Additional observations from a re-analysis of the deposited data

How the results depend on the processing

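All member changes stayed below 0 under the 16 alternatives, with medians between -0.99 and -0.74, but the counts of falls moved. The 23 member calls became 15 after quantile normalization, 15 with a pseudocount of 16 (14 of the 23, and Cks1b), and 0 to 14 with 1 array left out. The other mitosis genes went from 37 to 24 (pseudocount) and 0 to 24 (1 array left out), and the replication genes from 23 to 15 and to between 0 and 17. Over all genes, 448 fell and 274 rose. Array weights gave 897 and 538, leaving out 1 array 0 to 382 and 4 to 271, the pseudocount 182 that rose and scaling to the 75th percentile 469. Rises made up 38.0% of calls as deposited, 52.4% after quantile normalization (352 against 320 falls) and 59.9% after that scaling (469 against 314), which shifted the median of all genes by 0.10 and left the members' median relative to it at -0.86, as before. The deviations of same-numbered arrays of the 2 ages had correlations of 0.13, -0.27 and -0.09, and those of differently numbered arrays ran from -0.22 to 0.28. With 3 arrays per age these values cannot settle whether the numbers mark pairs. With the replicate block, 0 members (limma, lowest adjusted p = 0.055), 1 other mitosis gene and 0 replication genes fell, and 8 genes fell and 25 rose in all. Without both arrays numbered 2, a choice made after seeing the data, the counts of falls were 8, 14 and 11. The cause of these moves was not tested. Values near the negative controls, at most 4.76, have no reliable fold change. Among the members this concerns Cenpa, and in the other lists genes such as Cdc27, Sgo2, Cdca5 and Kif18a.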
